A study of Mus musculus with 2 samples.

Results

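The proteasome subunit genes were taken as all protein-coding genes whose symbol starts with Psma, Psmb, Psmc, Psmd, Psme, Psmf or Psmg followed by a digit, which gave 51 of the 21887 protein-coding genes in the RefSeq gene table of GRCm38. Of these, 49 encode subunits, regulators or assembly factors of the proteasome. The other two match by name alone: Psmc3ip, a factor of meiotic recombination named after its binding to Psmc3, and Psme3ip1, a protein that binds Psme3. The assay was ATAC-seq: the Tn5 transposase cuts accessible chromatin and adds adapters to it, and each insertion marks a position that the enzyme reached. There was 1 library of neural retina from adult wild-type C57BL/6 mice and 1 from adult Gabra3 knockout littermates of that strain, each from 20000 nuclei of flash-frozen tissue. Gabra3 encodes a subunit of the GABA-A receptor, a chloride channel opened by an inhibitory transmitter, and the series asks how accessibility differs when it is lost. The labels do not say how the allele was made, which sex the mice were or how many animals gave each library. The wild-type library held 7635799 insertions and the knockout library 7646373 after filtering. With 1 library per genotype there is no replicate check, so every ratio compares those libraries and not the genotypes.

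The proteasome degrades proteins that carry ubiquitin chains. Its barrel-shaped 20S core stacks rings of alpha subunits, which gate the entrance, around rings of beta subunits, some of which hold the proteolytic sites. A 19S cap of ATPases and non-ATPase subunits recognises ubiquitin, removes it and unfolds the substrate. Most of these genes are needed in every cell. Interferon induces a second set of beta subunits and the PA28 activator, which favour production of peptides for antigen presentation, and other variants are restricted to the thymus or the testis. In the retina, rod photoreceptors renew large amounts of protein and their protein quality control has been studied in retinal degeneration.

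Sequence upstream of 10 starts is shown first, because these genes carry the values described below. They are always-needed genes and the activator gene Psme3, which were open at a start, and 3 of the 5 interferon-inducible ones. The starts of those 3 held few insertions. Of the other inducible genes, which are not shown, Psmb9 had a sum of 40 insertions within 500 bp of the gene end. Psme2 had 107, more than the always-needed Psmb4 and Psmb5, but an end of Rnf31 lies 612 bp away. Within 250 bp Psme2 had 32 wild-type and 24 knockout insertions, Psmb4 had 32 and 34, and Psmb5 had 30 and 24. Each line gives the 150 bases before the annotated start, from RefSeq (GRCm38.p6), read 5′ to 3′ on the strand of the gene. Capitals mark matches on either strand to the short motifs searched: GC box, CCAAT box, ETS, NRF1, YY1, antioxidant response element, interferon response, NF-kB and TATA box. Psmd8 had the most insertions of all members. Psma7 and Psme3 had the highest ratios among members with at least 100 insertions. Psmc6 and Psmd11 hold an ETS match, Psmb5 holds an antioxidant response element, and Psma6 was open at a start inside the gene. Psme1, Psmb8 and Psmb10 are the interferon-inducible examples.
Psmd8, chr7:29180674-29180823, minus strand: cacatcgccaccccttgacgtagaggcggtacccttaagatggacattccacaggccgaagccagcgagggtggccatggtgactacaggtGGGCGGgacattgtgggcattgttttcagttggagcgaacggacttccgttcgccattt
Psma7, chr2:180042465-180042614, minus strand: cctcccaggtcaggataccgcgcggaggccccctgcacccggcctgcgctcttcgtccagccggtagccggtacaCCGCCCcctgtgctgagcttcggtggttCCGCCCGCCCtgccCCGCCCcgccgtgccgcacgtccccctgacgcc
Psmc6, chr14:45329674-45329823, plus strand: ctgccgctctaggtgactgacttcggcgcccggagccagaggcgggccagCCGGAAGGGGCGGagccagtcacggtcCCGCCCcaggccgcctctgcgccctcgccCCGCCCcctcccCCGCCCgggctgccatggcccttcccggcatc
Psmd11, chr11:80428465-80428614, plus strand: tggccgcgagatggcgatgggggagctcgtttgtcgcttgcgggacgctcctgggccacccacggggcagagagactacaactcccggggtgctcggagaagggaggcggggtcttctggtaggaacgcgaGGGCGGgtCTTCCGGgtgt
Psmb5, chr14:54617996-54618145, minus strand: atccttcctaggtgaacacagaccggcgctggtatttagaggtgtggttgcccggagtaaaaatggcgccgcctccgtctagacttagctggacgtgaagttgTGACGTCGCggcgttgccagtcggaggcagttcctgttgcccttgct
Psme3, chr11:101316063-101316212, plus strand: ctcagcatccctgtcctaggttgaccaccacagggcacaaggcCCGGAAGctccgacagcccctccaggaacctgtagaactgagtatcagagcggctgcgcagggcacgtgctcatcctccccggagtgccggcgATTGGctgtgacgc
Psma6, chr12:55398675-55398824, plus strand: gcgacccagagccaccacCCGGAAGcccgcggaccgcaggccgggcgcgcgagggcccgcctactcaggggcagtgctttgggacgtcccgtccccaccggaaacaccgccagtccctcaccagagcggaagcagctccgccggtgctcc
Psme1, chr14:55578344-55578493, plus strand: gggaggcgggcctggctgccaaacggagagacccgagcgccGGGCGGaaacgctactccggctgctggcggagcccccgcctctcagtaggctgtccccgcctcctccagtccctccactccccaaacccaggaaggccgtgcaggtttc
Psmb8, chr17:34198045-34198194, plus strand: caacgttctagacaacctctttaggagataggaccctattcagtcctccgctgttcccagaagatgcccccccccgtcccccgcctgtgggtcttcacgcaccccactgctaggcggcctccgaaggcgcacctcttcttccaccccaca
Psmb10, chr8:105938393-105938542, minus strand: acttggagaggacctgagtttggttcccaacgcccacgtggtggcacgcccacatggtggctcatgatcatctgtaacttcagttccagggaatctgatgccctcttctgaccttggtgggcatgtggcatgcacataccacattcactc

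A promoter is given as the 500 bp on each side of the gene end that held more insertions, summed over both libraries. Each count is therefore over a window of equal length, and counts can be set beside each other between genes. Some windows miss an annotated start or take in an end of another gene, as given further on, so such a count is not the level of 1 promoter. Of the 51 genes, 38 (74.5%) had at least 100 insertions summed, 7 had 20 to 99 and 6 had fewer than 20. Among all protein-coding genes 34.3% reached 100. The median was 146 insertions for the proteasome genes, 77 in the wild-type and 68 in the knockout library, against 26 for all genes. A pooled open region, a stretch called as enriched over its surroundings, lay at 43 of the 51 windows (84.3%), against 50.6% of all genes. The 38 well covered promoters also shared an order between the libraries, with a Pearson r of 0.91 for log2 counts; the points are genes of the same pair of libraries, so this describes them and tests nothing. Reads in bulk tissue do not separate how many cells carry an open promoter from how open it is in each, so those cannot be told apart here.

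**Figure D1:**
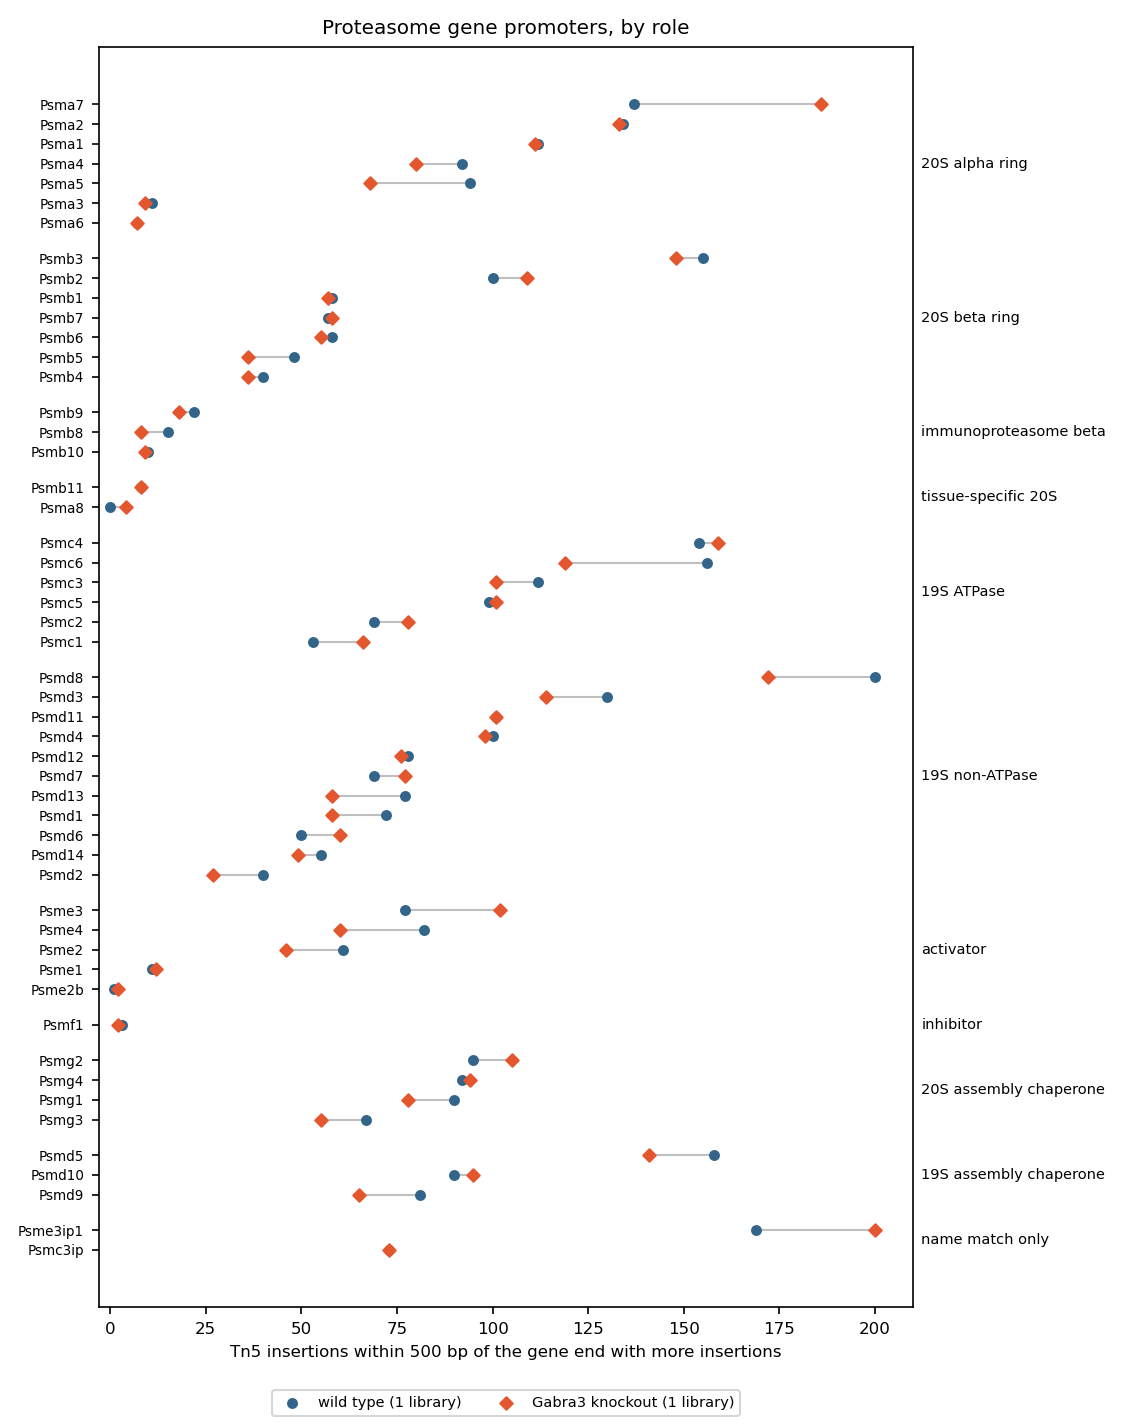
Insertions within 500 bp of the gene end (x axis, counts) for the 51 genes found by symbol (y axis), grouped by role, with 1 point per library. Constitutive subunits of the core and cap mostly lie between 50 and 200 insertions per library, while immunoproteasome and tissue-specific subunits stay at 22 or below.

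The 7 genes of the 20S alpha ring ran from 14 to 323 insertions in sum at the gene end. Psma7 had 137 insertions in the wild-type and 186 in the knockout library, the highest of the ring in both. Psma2 had 134 and 133, and Psma1 had 112 and 111, nearly equal counts. Psma4 had 92 and 80, and Psma5 had 94 and 68, lower in the knockout library. Psma3 and Psma6 held almost nothing at the gene end, with 11 and 9 insertions and with 7 and 7. These low counts concern the gene end and not the gene, since both genes were open elsewhere, as given further on.

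The constitutive beta ring ran from 76 to 303 insertions in sum, with a median of 115 against 172 for the alpha ring. Psmb3, a structural subunit, led with 155 wild-type and 148 knockout insertions, followed by Psmb2 with 100 and 109. Psmb1 had 58 and 57, close in both libraries. The catalytic subunits were among the least open members of the ring. Psmb5, which carries the chymotrypsin-like activity, had 48 and 36. Psmb6, the caspase-like subunit, had 58 and 55, and Psmb7, the trypsin-like subunit, had 57 and 58. Psmb4, which is not catalytic, was the lowest in sum with 40 and 36. An open region was called at all 7 promoters.

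The interferon-inducible beta subunits, which take the place of the 3 catalytic ones in the immunoproteasome, had few insertions. Psmb9 had 22 in the wild-type and 18 in the knockout library, Psmb8 had 15 and 8, and Psmb10 had 10 and 9. Their sums of 19 to 40 lay below the lowest constitutive beta subunit, at 76. The promoter of Psmb9 faces that of the peptide transporter gene Tap1, whose end lies 226 bp away and which had 27 and 18 insertions at the end of the gene with more of them. The open region near Psmb8 (chr17:34197400-34197849) ended before its start, between Tap1 and Psmb8, and held 27 and 16. In Psmb10 the start was closed, but a region inside the gene (chr8:105936750-105937449), 943 bp from the gene end, held 60 wild-type and 57 knockout insertions. No annotated start of the RefSeq promoter table lies in that region.

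Microglia are resident immune cells, and their markers were counted at gene ends in the same way. Annotated starts of the markers were not examined. The promoters of 7 microglia and immune markers held 42 wild-type and 40 knockout insertions in all, and Spi1, a myeloid transcription factor gene, with 20 and 16, was the one that reached 20 in sum. Of the others Ptprc had 1 and 2, Cx3cr1 had 3 and 0, and Csf1r had 10 and 9. Of the rod markers, Gnat1, the rod transducin gene, had 157 and 137 insertions, and Nrl, a transcription factor gene of rods, had 80 and 77. Both rod promoters were thus open in both libraries of the labelled tissue. The part of immune cells in the immunoproteasome counts was not tested.

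The tissue-specific subunits were closed. Psmb11, the beta subunit of the thymic cortex, had 8 and 8 insertions, and Foxn1, a marker of that tissue, had 10 and 10. Psma8, an alpha subunit of male germ cells, had 0 and 4, where a count of 0 allows up to 3. The germ line markers Ddx4, Sycp3 and Stra8 had 4 and 7, 4 and 7, and 4 and 4. No open region was called at either subunit gene.

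All 6 ATPase genes of the 19S cap were open. Psmc4 had 154 wild-type and 159 knockout insertions and Psmc6 had 156 and 119, the most of the ATPase ring. Psmc3 had 112 and 101, and Psmc5 had 99 and 101. Psmc2 had 69 and 78, and Psmc1, the lowest, had 53 and 66. The lowest sum, 119, that of Psmc1, was at percentile 69.0 of all protein-coding promoters.

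The 11 non-ATPase genes of the cap had a median sum of 146 insertions. Psmd8 was the most open gene of the whole set, with 200 insertions in the wild-type and 172 in the knockout library, rank 811 of all genes. Psmd3 had 130 and 114. Psmd11 had 101 and 101, and Psmd4, a ubiquitin receptor, had 100 and 98. By sum these were at percentile 81.4 or above among protein-coding promoters. Psmd14, the deubiquitinase that removes the chain from the substrate, was much less open, with 55 and 49, while Psmd7, its partner, had 69 and 77. Psmd12 had 78 and 76, Psmd13 had 77 and 58, Psmd1, a large scaffold subunit, had 72 and 58, and Psmd6 had 50 and 60. Psmd2, the other large scaffold, had 40 and 27 at its gene end, the lowest of the group.

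The activators and the inhibitor ranged from open to closed. Psme3, the nuclear PA28 gamma, had 77 wild-type and 102 knockout insertions, and Psme4, the PA200 activator, had 82 and 60. Psme1, the PA28 alpha subunit that interferon induces, had 11 and 12 and no open region. Psme2, its partner, had 61 and 46, but the densest 50 bp lay over 600 bp upstream of its start, where the gene Rnf31 has an end 612 bp away, and within 250 bp of its own end it had 32 and 24. Psme2b, a copy of Psme2, had 1 and 2, and 75% of the 4 reads there passed the mapping filter, against at least 97.9% at every other member. Psmf1, the proteasome inhibitor PI31, had 3 and 2 at its gene end.

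The assembly factors were uniformly open. The 4 chaperones of the 20S core had 95 and 105 (Psmg2), 92 and 94 (Psmg4), 90 and 78 (Psmg1) and 67 and 55 (Psmg3) wild-type and knockout insertions. Of the chaperones of the 19S base, Psmd5 had 158 and 141, Psmd10 had 90 and 95, and Psmd9 had 81 and 65. No assembly gene fell below 122 in sum. Of the genes matched by name alone, Psme3ip1 had 169 and 200, and Psmc3ip had 73 and 73.

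For some members the count was low at the gene end but higher at an annotated start elsewhere, a comparison made after the values were seen. The promoter table held 43 of the 51 genes and gives strand and start. It lacks Psmb1, Psmb2, Psmb7, Psmc3, Psmd3, Psmd7, Psmg2 and Psma8. Psma3 has its annotated start 5340 bp from the gene end, and there it had 84 wild-type and 93 knockout insertions in place of 11 and 9. In Psma6 the gene end is itself an annotated start, with 7 and 7 and no open region, and another start 14603 bp inside the gene had 86 and 102. The start of Psmf1 lies 25248 bp from the end used, with 58 and 51 in place of 3 and 2. For Psmd2 the start lies 530 bp away, with 82 and 71 in place of 40 and 27. At these starts away from the gene end each of the 4 genes had over 100 insertions in sum. Psme3ip1 also has a start away from the gene end, by 236 bp, but its counts there were similar, 166 and 199, with a ratio of 0.32 (0.02 to 0.63) as defined further on.

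**Figure D2:**
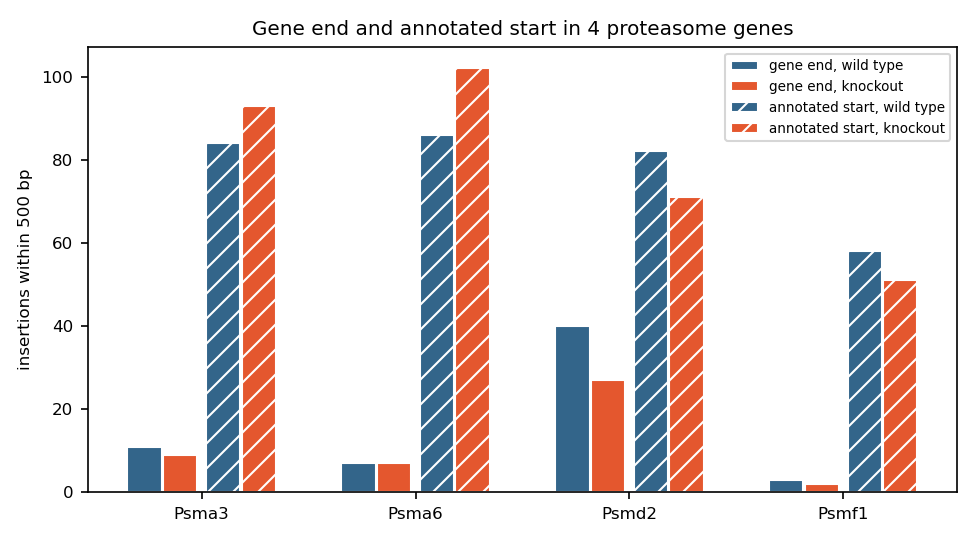
Insertions within 500 bp (y axis, counts) of the gene end used (plain bars) and of the annotated start with most insertions (hatched bars) for 4 genes, 1 bar per library. At the gene end Psma3 had 11 and 9 insertions and at its annotated start 84 and 93, and all 4 genes were higher at the start in both libraries.

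With the annotated start that held most insertions used where the table has one, 29 of the 31 constitutive subunits had at least 100 insertions. At the gene end 26 of these subunits of the core and cap did. Their sums then ran from 76 to 372 with a median of 176. The 2 below 100 were Psmb4 at 76 and Psmb5 at 84. The genes that stayed low at every annotated start were Psmb8, Psmb9, Psmb10, Psmb11, Psme1 and Psme2b, with sums from 3 to 40. The value of 39.1% of the 17492 genes of the promoter table with at least 100 insertions at a start stands beside 35 of the 43 members.

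Insertions at the members lay close to the start. The profile covers the 31 genes with a known start and at least 100 insertions at the gene end. They include Psmc3ip and Psme3ip1 and leave out Psma3, Psma6, Psmd2 and Psmf1. Of insertions within 1000 bp of the start, 68.7% of wild-type and 68.2% of knockout ones fell within 250 bp of it. Over 6164 promoters chosen in the same way the shares were 60.5% and 60.1%. Upstream of the start lay 58.1% and 58.4%, against 57.1% and 55.8%. The densest 50 bp of the wild-type profile were the 100 to 51 bp before the start, with 11.2% of insertions. In the knockout profile the first 50 bp after the start held the most, 10.0%, but by little. They held 344 insertions, against 341 in the 100 to 51 bp before the start. Single genes differed: of the insertions within 500 bp of the start of Psma5 11.8% lay upstream, and of those of Psmc2 87.8%. The end of Dnajc2 lies 11 bp from that of Psmc2. The open regions at the 38 well covered promoters were 550 to 1300 bp wide with a median of 800 bp, and the median over all such promoters was 850 bp.

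**Figure D3:**
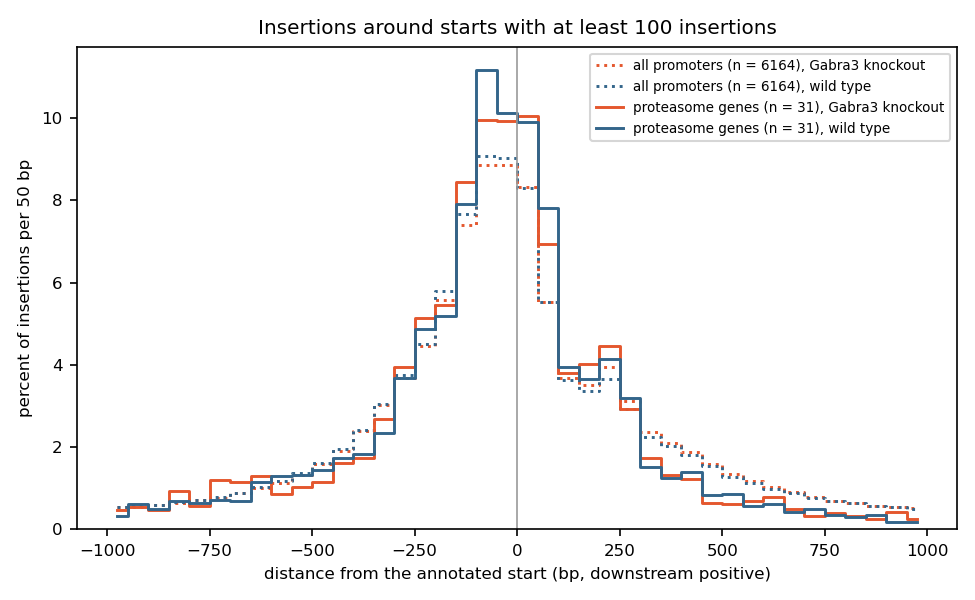
Share of insertions per 50 bp (y axis, percent) by distance from the annotated start (x axis, bp), 1 line per library. Solid lines are 31 of the proteasome genes found by symbol and dotted lines 6164 promoters, all with at least 100 insertions at the gene end. Proteasome genes reach 11.2% per 50 bp just upstream of the start in the wild-type library, above the 9.09% of all promoters there.

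Neighbouring gene ends, of either kind, were about as frequent as elsewhere. Of the 38 well covered members 12 (31.6%) had an end of another protein-coding gene within 1000 bp, against 29.7% of 7509 promoters. The closest were Psmc2 with Dnajc2, Psma7 with Ss18l1 at 19 bp, Psme3ip1 with Rspry1 at 21 bp and Psmd13 with Sirt3 at 85 bp. Other gene ends also lay inside the windows of Psmc5 (Ftsj3, 101 bp), Psma4 (AY074887, 173 bp), Psma2 (Mrpl32, 205 bp) and Psmg2 (Cep76, 232 bp). At all of these windows the insertions cannot be assigned to 1 of the genes.

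Motifs were searched in the 300 bases from 250 before to 50 after a start. The ETS, interferon response and YY1 letters were more frequent in the members than in both sets of other promoters. For YY1 the values were close, 4.65% against 4.43% of well covered promoters. The ETS sequence CCGGAAG, searched on both strands as all motifs here, was in 16 of 43 member promoters (37.2%). It was in 12.3% of 17492 promoters and in 23.5% of the 6836 with at least 100 insertions. None of the 5 interferon-inducible genes, Psmb8, Psmb9, Psmb10, Psme1 and Psme2, held it. The GC box GGGCGG was in 24 members (55.8%), above the 47.7% of all promoters and below the 74.0% of well covered ones. The letters CCAAT were in 34.9% of members, against 38.9% and 41.9%. In the sequences shown above, Psmc6 has 5 matches, with the ETS match followed directly by a GC box, and Psma7 has 4 GC boxes, of which a pair overlap.

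Rarer motifs were in few members. The antioxidant response element TGACNNNGC, the kind of element bound by the factors that raise proteasome genes when the proteasome is inhibited, was in 6 members (14.0%): Psmb5, Psmb6, Psmc6, Psmd12, Psmd9 and Psme4. It was in 13.2% of all promoters and 15.8% of well covered ones. The interferon response letters GAAANNGAA were in 6 members (14.0%), against 8.06% and 5.72%, and of the 5 interferon-inducible genes Psme1 alone held them, outside the stretch shown. The NRF1 core CGCATGCG was in 2 members, Psma2 and Psmg1 (4.65%, against 2.61% of all and 5.54% of well covered promoters), and the YY1 letters AAGATGGCG in Psmb6 and Psmc5 (4.65%, against 1.97% and 4.43%). The TATA box letters TATAAA were in Psmb4, Psmb8, Psmd1 and Psmd6 (9.30%, against 13.0% and 5.22%). The match in Psmb8 lies outside the stretch shown, as does the antioxidant response element of Psmc6. The NF-kB letters GGGACTTTC were in 0 members, against 0.354% and 0.249%. A match describes letters in a window and shows no binding, and a lack of matches says nothing of a factor.

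CpG content around annotated starts was lower in the interferon-inducible genes, with overlapping ranges. The 25 constitutive subunits in the promoter table had a median of 20 CpG dinucleotides per 300 bases (10 to 41). The 5 interferon-inducible genes had a median of 11 (3 to 19), with 3 in Psmb10. The starts of Psmb10 and Psme1 had no open region, and the region near Psmb8 ended before its start. For these genes the bases scored are thus not those of an open region, and the open region inside Psmb10 was not scored. Psmb11 had 4 and Psme2b 2. Well covered promoters in general had a median of 24. GC content differed less, with medians of 59.0% for constitutive and 57.3% for interferon-inducible genes.

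Between the libraries, the promoters of the proteasome genes were close. Summed over all windows, with each insertion counted once, they held 3923 wild-type and 3784 knockout insertions. Scaled to autosomal insertions in open regions, the log2 ratio of knockout over wild type was 0.01, with an exact 95% interval (Clopper-Pearson) of -0.06 to 0.07 that covers counting error only. Without the genes matched by name the ratio was -0.01 (-0.08 to 0.06). Of the 45 genes with at least 20 insertions 22 had a ratio above 0 and 23 below, with a median of -0.01, and the median over all 11893 such promoters was 0.02.

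Summed by role, every interval included 0; differences between roles were not tested. The 20S alpha ring had 587 and 594 insertions (log2 ratio 0.08, -0.09 to 0.24) and the constitutive beta ring 516 and 499 (0.01, -0.17 to 0.19). The ATPases had 643 and 624 (0.02, -0.15 to 0.18), and the non-ATPase subunits 972 and 890 (-0.07, -0.20 to 0.06). The chaperones of the core had 344 and 332 (0.01, -0.21 to 0.23), and those of the base 329 and 301 (-0.07, -0.30 to 0.16). Activators had 232 and 222 (0.00, -0.28 to 0.27), a sum over genes that differed, with Psme3 at 0.46, Psme4 at -0.39 and Psme2 at -0.34. The genes matched by name had 242 and 273 (0.23, -0.02 to 0.49), and the tissue-specific subunits 8 and 12 (0.62, -0.77 to 2.14). The immunoproteasome subunits had 47 and 35 (-0.36, -1.04 to 0.30), an interval that included both 0 and a value 1.5-fold lower, and within 250 bp of the gene ends the same 3 genes had 17 and 24 (0.54, -0.40 to 1.54).

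A change of 1.5-fold or more, with at least 100 insertions, was seen in 0 of the 38 genes in either direction. Over 7509 promoters 0.519% were that much higher and 0.226% that much lower in the knockout library, so the count of members is near the background. At 2-fold, 0 members were higher or lower, as were 0% of all promoters. For all 38 the interval lay within 2-fold, and for 16 (42.1%) within 1.5-fold, against 98.0% and 61.4% of the 7509, whose median count was 209 where that of the members was 175.5. The log2 ratios of the 38 had an SD of 0.23, and those of the 7509 of 0.19.

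**Figure D4:**
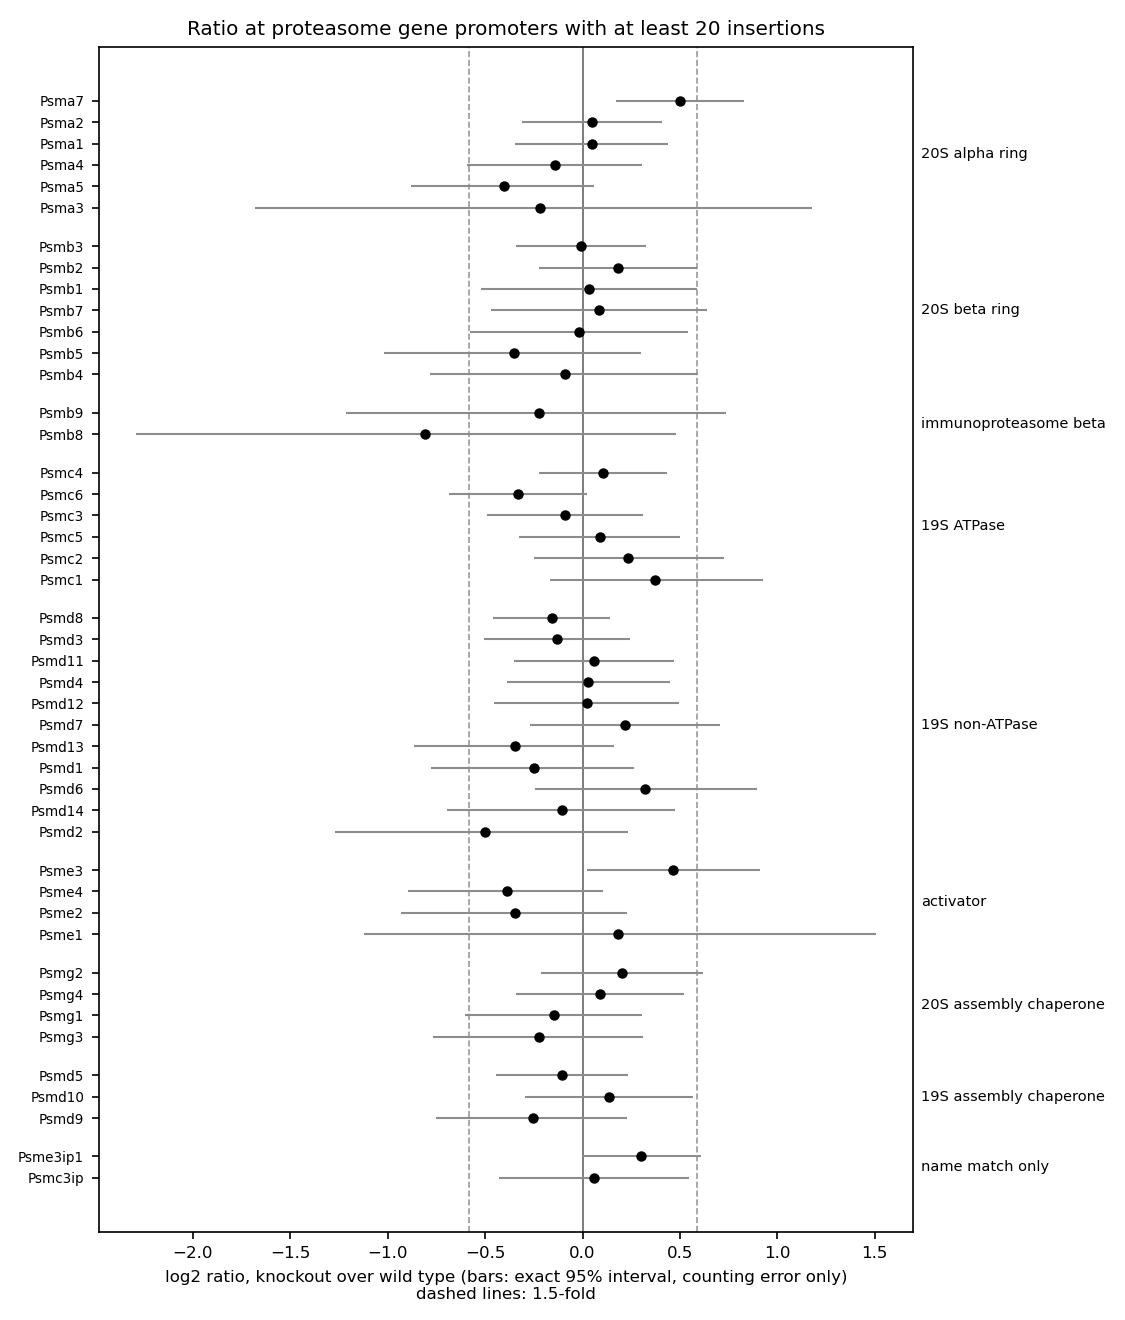
Log2 ratio of knockout over wild type (x axis) for the 45 proteasome genes with at least 20 insertions (y axis, by role), with exact 95% intervals for counting error and dashed lines at 1.5-fold. The intervals of Psma7 and Psme3 lie above 0, and all others include 0.

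The interval lay above 0 for 2 of the 45 genes with at least 20 insertions and below 0 for none of them, and over all 11893 such promoters it did so for 1.88% and 1.28%. The gene with the highest ratio was Psma7, whose 137 wild-type and 186 knockout insertions gave 0.50 (0.17 to 0.83). Both strands were higher in the knockout library, with 68 and 104 on the plus strand and 69 and 82 on the minus strand. Its window is shared with Ss18l1, and the open region there (chr2:180042000-180043299) was 1300 bp wide with 152 and 213. With all repeated reads kept the counts were 180 and 256 and the ratio 0.62, the one case in which Psma7 passed 1.5-fold. Psme3 had 77 and 102 insertions and a ratio of 0.46 (0.02 to 0.91), with 38 and 46 on the plus strand and 39 and 56 on the minus strand. With all autosomal insertions as the scale the interval of Psme3 reached 0 (0.40, -0.04 to 0.85).

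At the other end, the lowest ratios among well covered genes were those of Psma5, from 94 and 68 insertions (-0.41, -0.88 to 0.06), and Psme4, from 82 and 60 (-0.39, -0.90 to 0.11). Psmd13 had 77 and 58 (-0.35, -0.87 to 0.16), Psme2 had 61 and 46 (-0.34, -0.93 to 0.23), and Psmc6 had 156 and 119 (-0.33, -0.69 to 0.02). Their intervals included 0 in these windows. The open region at Psmd13 (chr7:140881650-140882699) held 96 wild-type and 66 knockout insertions (-0.48, -0.96 to -0.01), an interval that left out 0. It was 1 of the 43 regions at member windows. For the regions at Psma5, Psme4, Psme2 and Psmc6 the interval included 0. Among thinly covered genes Psmb8 had the lowest, from 15 and 8 (-0.81, -2.29 to 0.48), and within 250 bp it had 2 and 5. Psmd2 had -0.50 (-1.27 to 0.23) at its gene end and -0.15 (-0.63 to 0.33) at its annotated start.

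**Figure D5:**
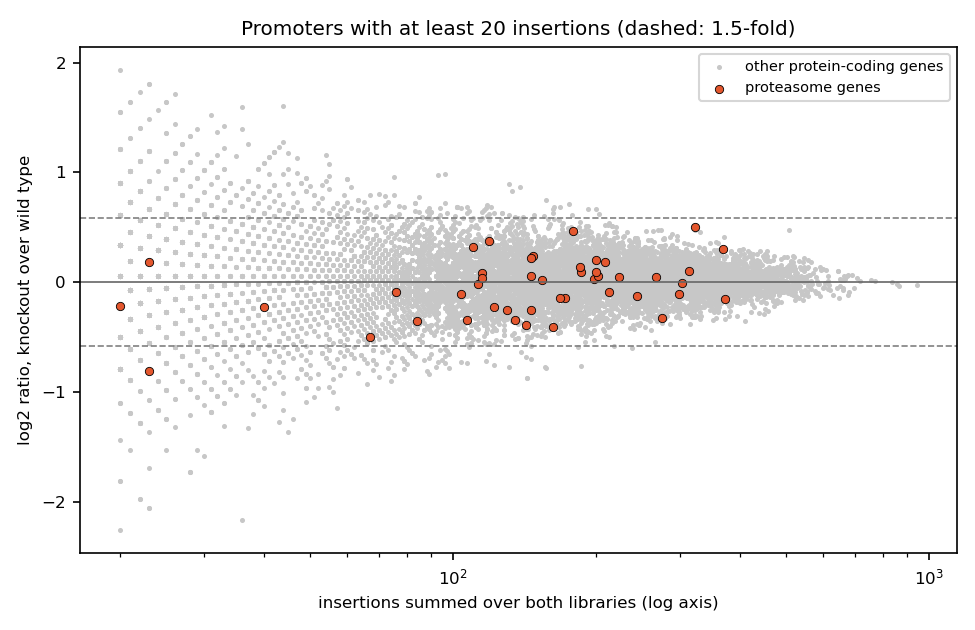
Log2 ratio of knockout over wild type (y axis) against insertions summed over both libraries (x axis, log scale) for all promoters with at least 20 insertions, with the 45 proteasome genes in colour and dashed lines at 1.5-fold. The proteasome genes lie within the cloud of other genes, and Psmb8, with 23 insertions, is the one below the lower line.

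Some genes were also open outside the gene-end window. Inside 12 of the 51 genes lay 14 further open regions that did not touch the window. Of these, 4 held an annotated start, in Psma3 (91 and 98 insertions), Psma6 (80 and 92), Psmf1 (56 and 47) and Psmc2. The one in Psmc2 (chr5:21786500-21787099) had 51 wild-type and 53 knockout insertions, beside 69 and 78 at the gene end. In Psmd9 a region 17410 bp from the gene end (chr5:123245600-123245899) had 14 and 3 insertions (-1.99, -4.60 to -0.32), a sum of 17 and 1 of 14 regions looked at. The others without a start, Psmb10 apart, had 5 to 11 wild-type and 4 to 14 knockout insertions.

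The genes that work with the proteasome, in lists written with knowledge of earlier results of these data, gave a similar picture. Of 17 proteasome-associated factors 15 had at least 20 insertions, 10 with a ratio above 0 and 5 below, and together they held 1848 and 1862 (0.07, -0.02 to 0.16). Rad23b, a shuttle that brings ubiquitinated proteins to the proteasome, had 267 and 262, and Ube3c, a ubiquitin ligase on the proteasome, had 229 and 237. Pomp, the factor that completes assembly of the core, had 47 and 73 (0.69, 0.15 to 1.25), higher in the knockout library. It was 1 of the 14 genes of its list with at least 100 insertions and the one past 1.5-fold, where 0.519% of all promoters were that much higher, and the other 4 lists held 0 such genes in either direction. The next largest ratio in that list was Sem1, a small cap subunit, at 67 and 57 (-0.17, -0.71 to 0.36).

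Regulators of proteasome transcription had 1455 and 1370 insertions (-0.03, -0.14 to 0.08), with 4 of 10 measured genes above 0. Nfya, a subunit of the factor that binds CCAAT boxes, had 336 and 336 and ranked 14 of all genes, and Stat3 had 210 and 192. Nfyb had 129 and 101 (-0.29), and Ngly1, which activates the factor encoded by Nfe2l1 by removing its sugars, had 109 and 126 (0.27). Genes of ubiquitin and its activation had 673 and 625 (-0.05, -0.21 to 0.11). In that list Uba6 had 184 and 164, Rps27a had 153 and 134, Uba1, the main ubiquitin-activating enzyme, had 37 and 22 (-0.68, -1.52 to 0.11), and Ubb had 112 and 125 (0.22).

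Genes of the p97 complex, which extracts ubiquitinated proteins from membranes and complexes, had 724 and 684 insertions (-0.02, -0.18 to 0.13). Faf1 had 206 and 201, Vcp, which encodes p97 itself, had 176 and 160, Ubxn1 had 87 and 60 (-0.47, -0.98 to 0.01) and Faf2 had 72 and 94 (0.44, -0.01 to 0.91). Genes of antigen presentation had 562 and 518 (-0.06, -0.23 to 0.12), a median sum of 45 per gene and 7 of 10 measured ratios below 0. Calr, a chaperone of peptide loading, had 217 and 198, Tapbp had 64 and 72, B2m had 20 and 13 (-0.54, -1.69 to 0.52) and Tap1 had 27 and 18 (-0.51, -1.47 to 0.39). All list intervals included 0, and those of single genes named here did too, Pomp excepted.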

How the data were processed

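The data were 2 ATAC-seq libraries of neural retina, 1 per genotype, sequenced as 75 bp single-end reads. The submitters' processing notes name Trimmomatic 0.33, BWA, bedtools 2.23.0 and GRCm38 (mm10), with no version of BWA and no role for the tools. Each line of the deposited files is 1 aligned read, and the deposited score is its mapping quality, at most 37 and not normalized. There were 9170838 wild-type and 9038110 knockout reads.

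Reads with a score of at least 10 (93.6% and 93.4%) were reduced to their 5-prime end, shifted by 4 bp on the plus and -5 bp on the minus strand, and counted once per position and strand; 11.0% and 9.41% were repeats. Both libraries were summed to find 37018 open regions: 200 bp windows, placed every 50 bp, whose count had a Poisson p under 1e-05 given the genome-wide or the surrounding 10000 bp rate, whichever was higher, joined within 150 bp. For each window the knockout count was divided by the wild-type count on the log2 scale (pseudocount 0.5), after scaling by the autosomal insertions that fell in open regions (1461012 and 1402517). No test between genotypes was possible with 1 library each, so no p is given. A gene was counted as apart at 1.5-fold or 2-fold with at least 100 insertions. Ratios and intervals were tested on simulated Poisson counts with known changes, which hold counting error only. The scaling, the choice of gene end and variation between libraries were not part of that check. Strand and starts came from the RefSeq promoter table (GRCm38.p6).

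All members are accounted for. In each list of other pathway genes the text names 2 genes by insertions and 2 by the size of the ratio, among those with 20 or more insertions. The members and lists were chosen with earlier results of these data known. Python 3.11.15, numpy 2.4.6, pandas 2.3.3, scipy 1.17.1 and matplotlib 3.10.9 were used.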

Additional observations from a re-analysis of the deposited data

How the results depend on the processing

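Mapping quality of at least 30, all repeats kept, other scalings, windows of 250 and 1000 bp, no Tn5 shift, a pseudocount of 1 and, chosen after seeing the data, windows at annotated starts and no minimum of mapping quality were tried. The summed ratio of all members stayed between -0.05 and 0.04 with 0 inside every interval. Of 111 recomputed summed ratios 1 left the main interval, that of the immunoproteasome subunits at 0.54 with 250 bp windows, and of 459 member ratios 1 did, that of Psmb8 (1.20 with 250 bp). The ratio of Psma7 ran from 0.44 to 0.62 with 0 outside each interval, while the interval of Psme3 reached 0 in 3 of 9 settings. Counts past a fold moved where low counts entered or repeats were kept: 1 member was 1.5-fold higher with all repeats, 1 was 1.5-fold lower with a minimum of 20, and with no minimum 2 were higher, 1 was lower and 1 was 2-fold higher. At the gene end with fewer insertions, 0 members reached 100 insertions and the median was 7. Depth limits what can be seen: the interval lay within 1.5-fold for 16 of the 38 well covered members. The summed immunoproteasome interval of -1.04 to 0.30 includes decreases of up to 2-fold. That of Psme1, -1.12 to 1.51, includes changes of 2-fold in either direction.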
